A study of Lachancea waltii with 4 samples.

Results

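The genes described here are those of Kluyveromyces waltii (now Lachancea waltii) whose RNA signal the scanner software did not call well above background on at least 1 of 4 arrays. They were chosen by their own RNA signal. Both probes of a gene had to be not well above background in the RNA channel on the same array, and both had to be well above background in the genomic DNA channel on all 4. Of 5193 genes with probes, 54 met these conditions (1.04%), and they are called background-level genes below. Because the RNA channel chose them, their low RNA signal, and the low expression level that follows from it, are given as a description and not as a finding.

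Absolute mRNA abundance was measured in strain NCYC 2644 of this budding yeast, grown at 30 °C in a rich medium abbreviated CM until mid-log phase. Total RNA was copied into cDNA and labelled with the green dye Cy3, and it was hybridised on each array together with sheared genomic DNA of the same strain labelled with the red dye Cy5. The arrays, numbered 1 to 4, form 1 group with no treated or mutant sample, and each carries 2 probes of 55 bases per gene together with 77 spots of 1 negative control sequence. The methods of the study describe such RNA samples as biological replicates, but the labels do not say that they came from separate cultures, and they give the genomic DNA the same name on every array, so the spread between arrays may be technical.

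In such an array the genomic DNA channel shows whether a probe can capture its target, since every gene is in the DNA. Good genomic DNA signal beside no RNA signal is the usual mark of a working probe for a gene with little or no RNA in the sample. In Saccharomyces cerevisiae, a related budding yeast, genes known to be silent or nearly silent in cells growing on rich medium include those for meiosis and spore formation, the silent copies of the mating-type genes, many genes next to the chromosome ends, and many transporters and enzymes for nutrients that the cells are not using. The files pair the K. waltii identifiers with no gene names, so that none of the 54 genes can be placed in such a class here. In a bulk culture, RNA present in few cells and little RNA in every cell cannot be told apart.

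The RNA signal given throughout is the median Cy3 intensity of a spot minus its local background, in scanner units, and the value of a gene is the median over its 2 probes. The 54 genes had a median RNA signal of 50.6, 73.8, 57.8 and 62.1 units on arrays 1 to 4. The negative control spots had a median of 27.5, 37, 34 and 34 units on the same arrays, and the other genes 1226.5, 1767.2, 1359.8 and 1606 units. Array 2 was the brightest and array 1 the dimmest of the 4 for all 3 sets. The genes at background thus lay above the centre of the negative controls on every array, by 27.9 ± 6.28 units or 1.84 ± 0.12-fold (SD, n = 4 arrays), while the other genes lay 24.4 ± 1.01-fold above them. This direction turned with the processed signal of the scanner software, in which the same difference of medians was -185.9 ± 98.7 units. The difference stayed positive without background subtraction (28.5 units), with the software's background-subtracted signal (30.0 units) and with the mean pixel signal (28.5 units). The local background around their spots had a median of 30, 31, 31.8 and 29.5 units, against 29.5, 31, 32 and 30 units around the spots of other genes, and neither set was the higher on all 4 arrays.

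Most of the 54 genes were not inside the range of the negative controls, whose 95th percentile was 36.2, 58.5, 46.3 and 47.6 units on arrays 1 to 4. On these arrays 6, 8, 9 and 7 of the 54 genes were at or below it, and 7, 9, 10 and 8 of all genes. Over the 4 arrays, 40 of the 54 genes were never within that limit, 6 were on 1 array, 3 on 2 arrays, 2 on 3 arrays and 3 on all 4. Only 1 gene on array 1, 1 on array 2 and none on arrays 3 and 4 fell to the median of the negative controls. The label "at background" therefore holds only by the call of the scanner software, on 1 array alone for 24 genes and on all 4 for 8. In background-subtracted median signal, though not in the processed signal, most of the genes were brighter than the bulk of the negative controls. The highest negative control spot reached 102, 116, 147.5 and 212 units, which is above every background-level gene on arrays 1, 3 and 4. That spot is an extreme, since 76 of the 77 control spots were not well above background on each of arrays 1, 3 and 4.

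**Figure D1:**
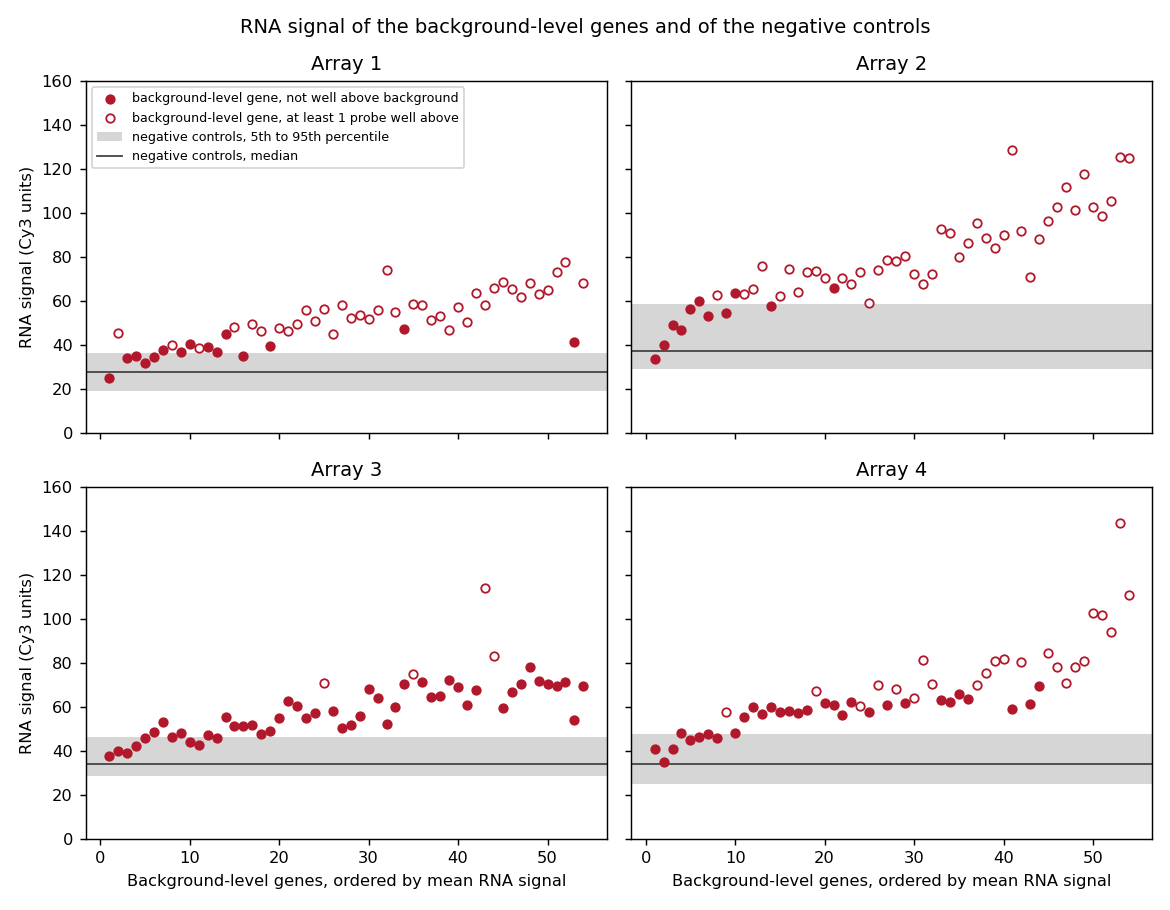
RNA signal (Cy3 units, y axis) of the 54 background-level genes on each of the 4 arrays, ordered along the x axis by their mean over arrays. Filled points mark genes with both probes not well above background on that array, open points genes with at least 1 probe well above it, and the grey band and line give the 5th to 95th percentile and the median of the 77 negative control spots. Filled points are most frequent on array 3 (50 genes) and least frequent on array 2 (11 genes), and most points lie above the grey band.

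Another call of the same software was less strict. A spot was positive and significant if its pixels exceeded the local background in a test with a p limit of 0.01, per the file headers. Of the 432 spots of the 54 genes, 263 (60.9%) were not well above background, against 409 of the 41544 spots of all genes (0.985%), yet 381 of the 432 (88.2%) were positive and significant. The 51 spots that were not significant were 6, 11, 21 and 13 on arrays 1 to 4. When the significance call took the place of the stricter one, 6 genes remained of the 54, and no other gene came in.

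How many arrays placed a gene in the set differed widely. There were 24 genes not well above background on 1 array, 15 on 2 arrays, 7 on 3 arrays and 8 on all 4. Array 3 took part in most of them, with 50 of the 54 genes not well above background there, against 15, 11 and 31 on arrays 1, 2 and 4. Over all 5193 genes the shares for arrays 1 to 4 were 0.308%, 0.231%, 0.982% and 0.616%. Array 3 alone placed 20 genes and array 4 alone 4, while arrays 1 and 2 placed none by themselves.

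The 4 arrays did not apply the same limit. In background-subtracted units of the scanner software, the lowest gene spot called well above background was at 20.82, 28.34, 39.78 and 30.79 on arrays 1 to 4, and the highest not so called at 20.04, 27.04, 39.45 and 30.35. Array 3 had the highest limit, although the median RNA signal of the 54 genes was lower there than on arrays 2 and 4. Whether this limit had a part in the 20 genes that array 3 alone placed in the set was not tested. Chosen on the other 3 arrays, the set held 34 genes without array 3, 50 without array 4 and 54 without array 1 or array 2, all of them among the 54.

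An array that took no part in the choice gives a reading the rule did not use. Among genes chosen on the other 3 arrays, both probes were not well above background on the array left out for 15 of 54 genes (27.8%), 11 of 54 (20.4%), 30 of 34 (88.2%) and 27 of 50 (54.0%), in the order of arrays 1 to 4. Among the remaining genes the same was true, in the same order, of 1 of 5139 (0.0195%), 1 of 5139 (0.0195%), 21 of 5159 (0.407%) and 5 of 5143 (0.0972%). Every chosen gene lay within the lowest 5% of the others' RNA signal on the array that had not chosen it. Low signal therefore carried over between arrays for all these genes, but the call of not well above background did so for 47.6 ± 30.7% of them (SD over the 4 arrays left out).

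Within the 54 genes the order of RNA signal was only partly the same on the 4 arrays. Pearson's r of log2 RNA signal between arrays, over these 54 genes, was highest for arrays 2 and 4 (0.820) and arrays 1 and 3 (0.736). For the other 4 pairs it lay between 0.596 and 0.691. Over all 5193 genes the same 2 pairs were highest, at 0.9935 and 0.9943, against 0.9881 to 0.9903 for the other pairs. The arrays thus resembled each other in pairs, 1 with 3 and 2 with 4, and the labels give no difference between them. The 54 genes span a narrow range of signal, and genes are not independent replicates. After each array was divided by its negative control median, the SD of a gene's log2 RNA signal between arrays had a median of 0.18 for the 54 genes. It was 0.15 for the 54 genes with the next lowest RNA signal that were detected with at least 1 probe on every array, and 0.16 for all genes.

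The 8 genes that were not well above background on all 4 arrays were the core of the set. Kwal_23.3697, on the contig numbered 23, gave 25, 33.5, 37.5 and 40.8 units on arrays 1 to 4 and was the dimmest gene measured. Its mean was 1.03 times the negative control median, and it was within their 95th percentile on every array. Kwal_14.728 gave 34, 49, 39 and 41 units, Kwal_47.16564 gave 34.8, 46.8, 42 and 48 units, and Kwal_27.10796 gave 31.5, 56.5, 45.8 and 45 units. Kwal_23.3697, Kwal_14.728 and Kwal_27.10796 were within the 95th percentile of the negative controls on all 4 arrays, and Kwal_47.16564 on 3.

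The other 4 of the 8 were somewhat brighter. Kwal_8.570 gave 34.2, 59.8, 48.8 and 46.2 units, and Kwal_26.9058 gave 37.5, 53.2, 53.2 and 47.5 units. Kwal_56.22295 gave 40.2, 63.8, 44.2 and 48.2 units and Kwal_23.2782 gave 44.8, 57.8, 55.5 and 59.8 units. All 8 genes were lowest on array 1, which was also the dimmest array for the negative controls and the other genes. Kwal_23.2782, the brightest of the 8 by mean, stood at 1.64 times the negative control median. Kwal_14.722, which was among the 3 dimmest of the set by mean, gave 45.2, 40, 40 and 35 units and was missing from this group only because of array 1, where it was brightest.

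At the upper edge of the set were genes that a single array had placed in it. Kwal_26.6684 gave 68, 125, 69.5 and 111 units and was not well above background on array 3 alone. Kwal_24.6611 gave 77.8, 105.2, 71.2 and 94 units and was also placed by array 3 alone. Both were brighter on arrays 2 and 4 than on arrays 1 and 3 in scanner units, as was the median of the other genes. As a multiple of the negative control median, Kwal_24.6611 was low on array 3 alone, at 2.10 against 2.76 to 2.84 on the other arrays. Just outside the set, among genes that met the condition on genomic DNA, the lowest mean RNA signals were those of Kwal_23.4573 with 59.2, 75.5, 65.2 and 63.5 units, Kwal_55.22117 with 56.5, 76.5, 81.2 and 62.8 units, and Kwal_33.15251 with 59.2, 70.5, 73.5 and 87.2 units. Their means of 65.9, 69.2 and 72.6 units lay below that of Kwal_26.6684 (93.4 units), so signal alone did not separate the genes inside from those outside. Kwal_55.22117 would join if its 2 probes could miss the limit on different arrays, which gives 55 genes.

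A few genes varied between arrays far more than the rest. Kwal_33.14561 gave 41.5, 125.5, 54 and 143.5 units and had the largest SD of the set between arrays (0.76 on the log2 scale). Both of its probes were high on array 2 (136 and 115 units), but on array 4 the probes gave 83 and 204 units. It was not well above background on arrays 1 and 3 and was called well above it on arrays 2 and 4. This is the split seen in the correlations between arrays. Kwal_26.9129 gave 50.2, 128.5, 60.8 and 59.2 units, and its high value on array 2 came from 1 probe at 183 units against 74 units for the other. Kwal_26.7577 gave 58, 70.8, 114 and 61.5 units and stood out on array 3, again with unequal probes (140.5 and 87.5 units).

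The 2 probes of a gene mostly read alike when averaged over the arrays. The log2 signal of each probe was averaged over the 4 arrays, and the gap is the absolute difference between the 2 averages. Differences of opposite sign on different arrays cancel in it. The gap had a median of 0.19 in the 54 genes, against 0.40 in the next 54 genes and 0.31 in all genes. The condition that both probes be low narrows this gap, and only 1 of the 54 genes had a gap over 1. That gene was Kwal_26.8791, whose first probe gave 28, 45, 48.5 and 40 units while its second gave 120, 99, 56 and 101 units. Its second probe was well above background on arrays 1, 2 and 4, so its place in the set rested on array 3. Next came Kwal_47.18703 with 41, 61.5, 57 and 81 units for its first probe, and 32, 47.5, 39 and 34 units for its second. In 11 of the 54 genes (20.4%), among them Kwal_47.18703, the 2 probes shared 50 or more of their 55 bases and so were close to a single probe measured again, against 9 of the next 54 genes (16.7%) and 664 of all genes (12.8%). In 27 (50.0%) they shared fewer than 5 bases, against 34 (63.0%) of the next 54 genes and 3443 (66.3%) of all genes.

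Base composition did not set the genes apart from others nearly as dim. The median GC content of the probes was 40.9% in the 54 genes, 40.9% in the next 54 genes and 42.7% in all genes. All but Kwal_6.520 lay between 36.4% and 43.6%.

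The genomic DNA channel asked whether the probes of these genes captured DNA like those of other genes. The rule required this signal to be well above background but set nothing on its size, so it could be tested. The median genomic DNA signal of the 54 genes was 7693, 9050, 8214 and 8927 units on arrays 1 to 4, against 8034.5, 9744, 8989.5 and 9280 units in the other genes, a ratio of 0.941 ± 0.023 (SD, n = 4 arrays). It was lower on every array, by a few percent. Of 5192 genes tested with limma against a 2-fold difference from the median gene, 4.16% were called above it and 0.520% below it (Benjamini-Hochberg adjusted p of 0.05). Of the 54 genes, 4 were above and 2 below, and the other 48 did not pass the test in either direction. These counts depended on the signal and the bound. With the processed signal of the scanner software 1 was above and 46 below, against 530 and 363 of all 5192 genes. In that signal most of the 54 genes were thus called below, while few of all genes were. Whether the processed signal of this channel is free of the RNA channel, which chose the genes, was not tested. The counts were 4 and 2 with quantile normalization or the mean pixel signal, and 6 and 2 with a normexp background correction. Over all genes they were 218 and 27, 219 and 30, and 499 and 26 in the same order. Tested against 0 in place of 2-fold 21 were above and 27 below, against 2213 and 2233 of all genes.

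Kwal_24.6611, which stands first on a contig of 3 genes, had the highest genomic DNA signal of the set with 40249, 44433, 43495 and 45494 units, 2.28 ± 0.06 above the median gene on the log2 scale or 4.86-fold (limma, adjusted p = 5.14e-16). Kwal_15.2641 gave 23018, 31235, 25494 and 26357 units, 1.57 ± 0.09 above on the log2 scale (2.96-fold, limma, adjusted p = 2.61e-10). Kwal_55.22259 gave 21885, 28254, 25132 and 25370 units, 1.49 ± 0.04 above (2.81-fold, limma, adjusted p = 2.89e-10). These 3 genes were high on all 4 arrays, and the last 2 have probes that match several genes, as described below. Kwal_56.22698 gave 18951, 20388, 20590 and 21405 units, 1.18 ± 0.09 above (2.27-fold, limma, adjusted p = 0.00105). With the processed signal of the scanner software Kwal_24.6611 kept its call and the other 3 did not pass.

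The genes with genomic DNA signal below the median gene were Kwal_23.3697 and Kwal_6.520. Kwal_23.3697 gave 238, 343, 292 and 330 units of genomic DNA, -4.996 ± 0.101 relative to the median gene on the log2 scale (31.9-fold lower, limma, adjusted p = 1.64e-21). The dimmest gene in RNA was therefore also the lowest of the set in genomic DNA. Kwal_6.520 gave 457, 610.5, 480 and 605 units, -4.06 ± 0.13 relative to the median gene on the log2 scale (16.7-fold lower, limma, adjusted p = 1.61e-19). Its probes had a GC content of 16.4%, the lowest of all genes, and whether base composition had a part in its signal was not tested. For both genes the probes had passed the condition on genomic DNA but captured far less of it than other probes, so their low RNA signal does not rest on a probe that read DNA like the rest.

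Only 1 gene was left out by the condition on genomic DNA alone. Kwal_37.16342 gave 22.5, 39.8, 35.5 and 45 units of RNA, within the range of the dimmest genes above. Its genomic DNA signal was 12.8, 20, 11 and 17.5 units, so neither channel rose above background, and its probes cannot show whether it was expressed.

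**Figure D2:**
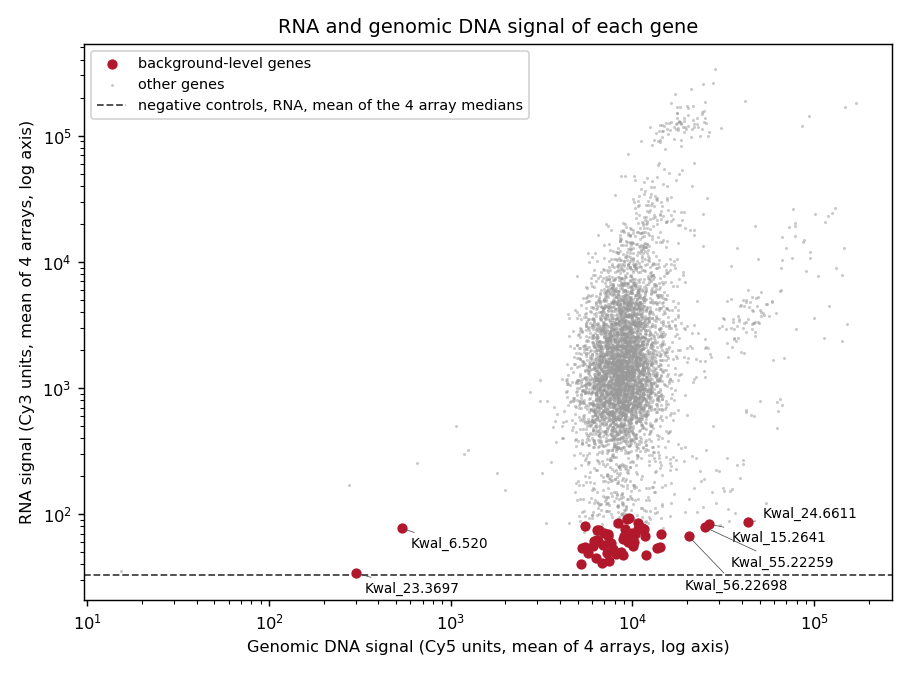
Mean RNA signal (Cy3 units, y axis) against mean genomic DNA signal (Cy5 units, x axis) over the 4 arrays, both on log axes, with 1 point per gene. The 54 background-level genes (large points) lie along the lower edge, near the dashed line of the negative controls, most of them at the genomic DNA signal of other genes (small points). Kwal_23.3697 and Kwal_6.520 lie far to the left, and Kwal_24.6611, Kwal_15.2641, Kwal_55.22259 and Kwal_56.22698 to the right.

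The ratio of RNA to genomic DNA gives the expression level of a gene, here set against the median gene. It is the quantity the study set out to measure. Where the RNA of a gene is not well above background, its level on that array is only an upper bound. Of 5192 genes tested with limma against 2-fold, 21.0% were called below the median gene and 23.1% above it. Of the 54 background-level genes 52 were below and 0 above. The choice by RNA signal largely fixes this count, so it is no test of these genes and nothing is read from it. With loess normalization within arrays after another background correction, the count below was 22 in place of 52. Over all 5192 genes it was then 843 in place of 1091.

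Among the 52 genes the level ran between -6.34 ± 0.04 for Kwal_24.6611 (81.1-fold below the median gene) and -3.46 ± 0.15 for Kwal_14.797 on the log2 scale (SD, n = 4). The lowest levels belonged to the genes with the highest genomic DNA signal. Genomic DNA is the denominator of the level, and the choice kept RNA signal within a narrow range. This order therefore largely follows from how the level is computed. After Kwal_24.6611 came Kwal_55.22259 at -5.78 ± 0.08, Kwal_15.2641 at -5.76 ± 0.07 and Kwal_56.22698 at -5.64 ± 0.13. These 4 had RNA signals above the median of the set, between 67.2 and 87.1 units by mean, so the order by level differed from the order by RNA signal. Of the 8 genes not well above background on all arrays, Kwal_8.570 stood at -5.37 ± 0.16, Kwal_26.9058 at -4.94 ± 0.30 and Kwal_14.728 at -4.80 ± 0.12, all of them upper bounds.

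Kwal_23.3697 and Kwal_6.520 were the 2 genes not called below the median gene. Their levels were -0.46 ± 0.29 and -0.20 ± 0.13 on the log2 scale, close to the median gene. Both channels were dim for both genes, and their level depended on how it was computed. With a normexp background correction they stood at -2.67 and -2.01 and were both called below. That makes 54 of 54, against 1179 of all 5192 genes, while under 3 other ways the sign turned. A level near the median gene thus came from a ratio of low signals in both channels.

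Of the 54 genes, 3 (5.56%) carried a probe whose sequence also stood for another gene, against 78 of all genes (1.502%). These were Kwal_15.2641, Kwal_55.22259 and Kwal_28.12868. For such genes the reads of identical probes show how far 1 sequence varies across an array, since each gene has its own spots.

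Kwal_15.2641 and Kwal_55.22259 shared both probes with Kwal_11.654, Kwal_31.12910, Kwal_47.19372 and Kwal_60.24929, which were detected on every array, so 1 pair of sequences stood for 6 genes. On array 3 the 6 spots of the first shared sequence ran between 68 and 123 units, and those of Kwal_15.2641 and Kwal_55.22259 were the lowest and not well above background. The 6 spots of the second ran between 66 and 99 units, and 4 of the 6 were not well above background. Over both sequences and all 4 arrays the highest spot was 1.47 to 1.91 times the lowest. Which of the 6 genes fell below the limit was thus decided among spots of the same sequence, and the RNA and genomic DNA signals of these genes cannot be assigned to 1 of them.

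**Figure D3:**
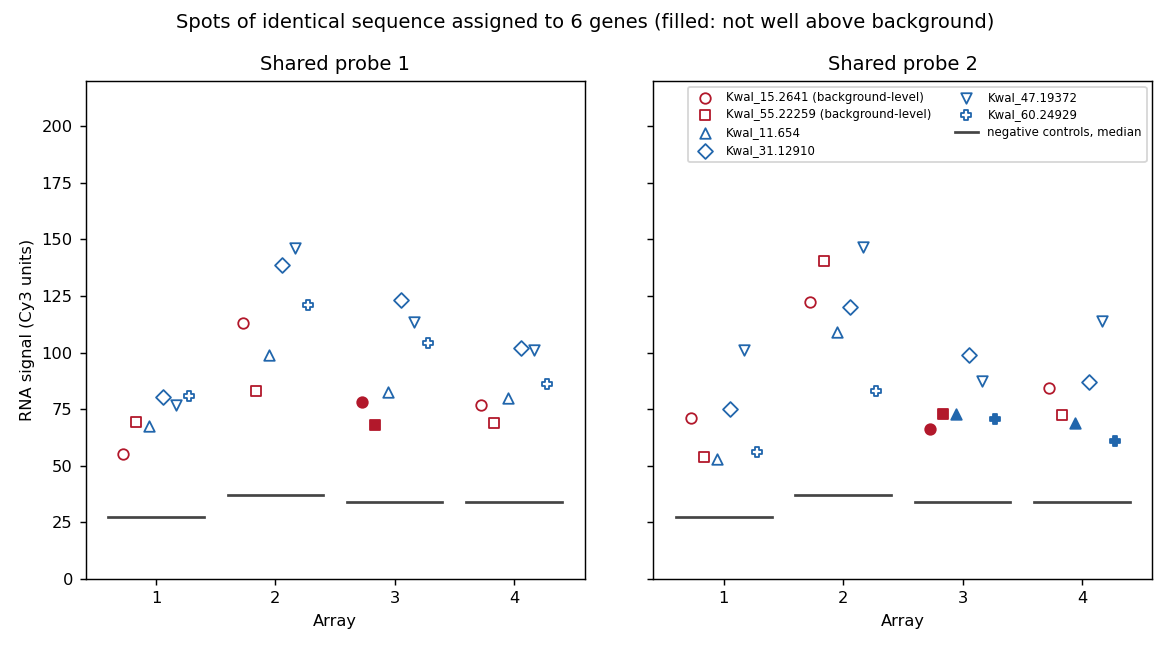
RNA signal (Cy3 units, y axis) on arrays 1 to 4 (x axis) of the spots of 2 probe sequences that each stand for the same 6 genes, with 1 symbol per gene. Red symbols are the background-level genes Kwal_15.2641 and Kwal_55.22259, blue symbols the other 4 genes, filled symbols spots not well above background, and lines the negative control median. On array 3 the spots of the first sequence run between 68 and 123 units and those of the second between 66 and 99 units.

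Kwal_28.12868, alone on its contig, shared both probe sequences with Kwal_27.9651. On the first sequence Kwal_28.12868 gave 46.5, 78.5, 70 and 58.5 units and Kwal_27.9651 gave 43, 68.5, 59 and 66 units. On the second Kwal_28.12868 gave 48, 103.5, 71 and 66 units and Kwal_27.9651 gave 77, 120.5, 99 and 87 units. The spots of Kwal_27.9651 were lower on the first sequence on 3 of 4 arrays and higher on the second on all 4, and it was kept out of the set by its second probe.

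The identifiers number genes along contigs, the assembled stretches of the genome, and their order was used as a stand-in for position, since the files used here give no coordinates. The contigs fall into 10 with 83 or more genes and 44 with 11 or fewer. Of the 54 genes 7 (13.0%) were on small contigs, against 140 of all genes (2.70%). Of the 47 on large contigs 12 (25.5%) were within 10 genes of a contig end, against 10 of 51 (19.6%) of the genes with the next lowest RNA and 200 of 5053 (3.96%) of all genes on large contigs. Within 5 genes of an end the counts were 7 (14.9%), 6 (11.8%) and 100 (1.98%), and within 20 genes 15 (31.9%), 12 (23.5%) and 400 (7.92%). Background-level genes were thus more frequent near contig ends than all genes were, and other dim genes were as well. Whether a contig end is also a chromosome end is not known here. Chosen without array 3, 10 of 30 genes on large contigs (33.3%) were within 10 genes of an end.

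The genes near ends were not spread evenly. They lay at 6 of the 20 ends of large contigs, with 3 at the first end of contig 14, 2 each at the first ends of contigs 23, 26 and 47, 2 at the last end of contig 55 and 1 at the first end of contig 56. The median RNA signal of the 10 genes nearest the first end was 161 units on contig 14, 165 units on contig 23 and 154 units on contig 26. At the last end of contig 27, which held none, it was 4906 units. The ends thus ranged from dim stretches to stretches brighter than the median of all genes (1480 units by mean over arrays).

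**Figure D4:**
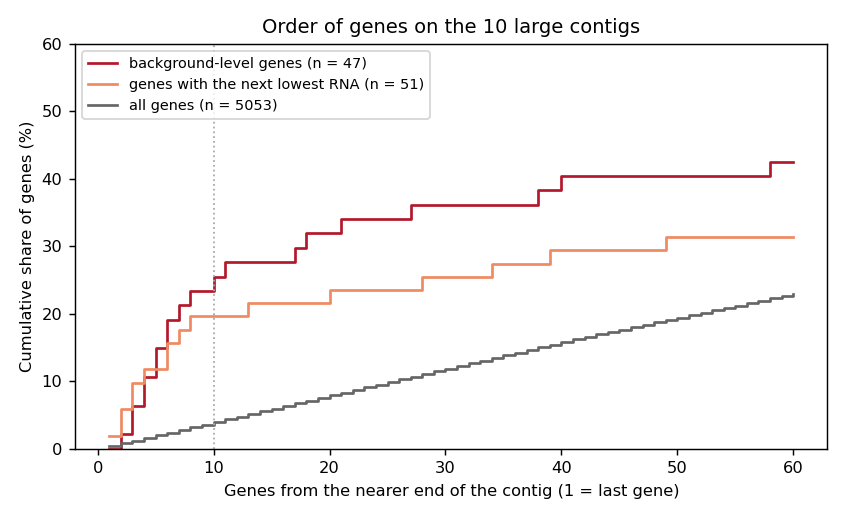
Cumulative share of genes (percent, y axis) that lie within a given number of genes of the nearer contig end (x axis), on the 10 large contigs, for the 47 background-level genes, the 51 genes with the next lowest RNA and all 5053 genes. At 10 genes from the end, the dotted line, the shares are 25.5%, 19.6% and 3.96%.

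Neighbouring genes were at times at background together. Of the 54 genes 11 stood next to another of them in the order of identifiers. No comparison with other genes is given, so this count is only a description. Kwal_14.722, Kwal_14.728 and Kwal_14.739 were the 4th to 6th genes of contig 14, and the last gave 56, 67.5, 54.8 and 62.2 units, more than the 2 before it. Kwal_23.2781, with 46.2, 73.2, 47.5 and 58.5 units, stood beside Kwal_23.2782 at the start of contig 23. Both groups lie at a contig end.

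The remaining pairs were alike in less. Kwal_55.22255 gave 35, 74.5, 51.2 and 58.2 units beside Kwal_55.22259 with 61.8, 111.8, 70.5 and 70.8 units. They were 6 and 5 genes from the last end of contig 55. Both were highest on array 2 and lowest on array 1, the brightest and the dimmest array for the other genes as well. Kwal_8.576 gave 58.5, 79.8, 74.8 and 65.8 units beside Kwal_8.570 on a contig of 11 genes, and it was the brighter of the pair on every array. Kwal_33.14563 gave 58, 78.5, 50.5 and 61 units beside Kwal_33.14561, in the middle of contig 33, and did not share that gene's high value on array 4.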

How the data were processed

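The deposited scanner files hold, per the file headers, spot intensities of both channels, local background and detection calls made by the authors with Agilent Feature Extraction 10.1.1.1 (the methods of the study name another version). The deposited log10 ratio of red over green was computed by the same software from its processed signals, and was used only as an alternative with its sign turned. The authors' log2 value table was not used, because its row numbers pair with no probe column. Control spots were left out, except the negative controls. RNA and genomic DNA signals were median intensity minus median local background, and a gene took the median over its probes. Genomic DNA signals were put on the log2 scale and centred on the array median. Levels were log2 Cy3 over Cy5, quantile normalised and centred. Both left out probes marked as outliers on any array (254). They were fitted across 5192 genes with limma 3.58.1 in R 4.3.3 (lmFit and treat against a log2 bound of 1, with Benjamini-Hochberg adjustment). Tables were handled with pandas 2.3.3 and numpy 2.4.6. On simulated data with 200 changed genes, 200 were recovered. Their shifts were all set beyond the bound, so this checks the fit and not its power near the bound.

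The genes named are those not well above background on all 4 arrays, the extremes of RNA signal, of spread between arrays, of probe gap and of genomic DNA signal, genes with shared probes or adjacent identifiers, and the nearest genes outside. The set, this rule and all lists were chosen with earlier results of these data known. All arrays lay on 1 slide in 1 group, so no batch was tested, and their number limits the precision.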

Additional observations from a re-analysis of the deposited data

Results flagged for a closer look

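For each of the 54 genes the RNA signal over the negative control median and the genomic DNA signal over the median gene were examined for 1 array far from the other 3, as were 13 measures of the whole set. Dixon's criterion, the gap to the nearest array as a share of the range, picked out 9 of the 121 measures. Chance picks out about 1 in 20, a rate that does not apply to RNA signal, since the genes were chosen for being low in it on at least 1 array. The 5 values of RNA signal are therefore a description. No explanation was tested for any of them.

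In RNA signal, as multiples of the negative control median, Kwal_26.9129 was high on array 2 at 3.47, against 1.74 to 1.83 on the other 3. Kwal_47.16564 was high on array 4 at 1.41, against 1.24 to 1.26. Kwal_24.6611 was low on array 3 at 2.10, against 2.76 to 2.84, and Kwal_6.520 was low on array 3 at 1.75, against 2.49 to 2.61. Kwal_55.21067 was low on array 4 at 2.04, against 2.39 to 2.45. Kwal_24.6611, Kwal_6.520 and Kwal_55.21067 are in the set because of the array on which they were low, so these values restate the choice.

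In genomic DNA signal, as multiples of the median gene, Kwal_15.2641 was high on array 2 at 3.21, against 2.84 to 2.87 on the other 3, and Kwal_26.7577 was high on array 3 at 1.08, against 0.978 to 0.990. That gene's RNA signal was also highest on array 3. Kwal_14.728 was at 0.774 on array 3, against 0.753 to 0.755, and Kwal_26.9129 at 0.717 on array 1, against 0.701 to 0.703, which are gaps of a few percent.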

How the results depend on the processing

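The number of genes at background depended on how it was counted. It was 30, 15 and 8 when both probes had to be not well above background on at least 2, at least 3 or all 4 arrays, 133 when 1 probe sufficed and 6 with the call of positive and significant. It was 34 to 54 without 1 array at a time, and 34 without array 3. A limit set by the negative controls gave 46 genes, of which 41 were among the 54. The median RNA signal of the genes minus that of the negative controls was -185.9 units with the processed signal of the scanner software, 12.2 units for the 8 genes alone, a comparison chosen after seeing the data, and 25 to 29.5 units without 1 array at a time. In the processed signal alone, of the signals tried, the genes were therefore lower than the negative controls. The difference was 28.5 units without background subtraction, 30.0 units with the software's background-subtracted signal and 28.5 units with the mean pixel signal. Why the processed signal differed was not tested.

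Of the 54 genes, 4 were above and 2 below the median gene in genomic DNA, against 216 and 27 of all 5192 genes. These counts were 21 and 27 when tested against 0, against 2213 and 2233 of all genes. They were 1 and 46 with the processed signal, against 530 and 363 of all genes, and there Kwal_56.22698 stood at -0.14. With quantile normalization or the mean pixel signal they stayed at 4 and 2, against 218 and 27 or 219 and 30 of all genes. With normexp they were 6 and 2, against 499 and 26 of all genes. The counts of levels above and below the median gene were 0 and 52. They were 2 and 22 after loess, against 520 and 843 of all 5192 genes. The count above was 1 with the log ratio of the scanner software, against 541 of all genes. Levels that turned positive were those of Kwal_23.3697 (1.63 after loess, 0.23 without background subtraction, 0.57 with the scanner's log ratio), Kwal_6.520 (1.84, 0.13 and 4.995) and Kwal_14.797 (0.37 after loess). With normexp alone, Kwal_23.3697 (-2.67) and Kwal_6.520 (-2.01) were called below the median gene, as were all 54 genes and 1179 of all genes. Tested against 0 all 54 were below as well, against 2427 of all genes. The causes were not tested. Without 1 array at a time, the counts in genomic DNA were 4 and 2 throughout and those of levels 0 and 52. The share of genes near contig ends, a measure chosen after seeing the data, was 14.9% within 5 genes and 33.3% without array 3. A filter on dim probes leaves none of the 54 genes, so it gave no value. No paired analysis was possible because there was 1 group.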
